A study of Mus musculus with 14 samples.

Results

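T, B and NK lymphocyte genes were followed across 14 mouse kidney RNA sequencing libraries as a set of 43 genes, chosen by symbol because each marks a lymphocyte class or one of its functions. All 43 were found among the 21878 genes of the expression tables. Of these, 42 reached an FPKM (mapped fragments per kilobase of transcript, scaled to the size of the library) of 0.1 in at least 3 mice and were tested, among 14912 genes tested in all. The set holds 29 T and NK genes, all tested, and 14 B and plasma cell genes, of which 13 were tested. Pax5, the transcription factor that commits cells to the B lineage, failed this filter. Another 5 genes (Foxp3, Pdcd1, Fcer2a, Bank1 and Tnfrsf17) reached 0.1 in none of the control mice and passed through diabetic mice alone. Ctla4, Icos and Tnfrsf13c reached it in 1 control mouse, and Cd28, Gzmb, Prf1, Ncr1, Cd22, Blk and Pou2af1 in 2. These too needed diabetic mice to pass. Counts over the tested genes are therefore given as a description.

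The libraries came from kidneys of male C57BL/6J mice in 4 groups, namely 3 WT control, 3 Cfb-/- control, 4 WT diabetic and 4 Cfb-/- diabetic mice. Cfb encodes complement factor B, the protease of the alternative pathway, and nothing in the labels restricts its deletion to one cell type. Diabetic mice of both genotypes had been fed a diet with 60% of calories from fat for 4 weeks and given streptozotocin (STZ), which destroys insulin-producing beta cells, at 60 mg/kg on 5 days in a row. Control mice of both genotypes had eaten chow with 10% of calories from fat and received citrate buffer. The labels give every mouse a time of 34 weeks without saying from which event it was counted. All comparisons thus combine diet with STZ, and the 2 agents cannot be told apart.

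T cells recognise antigen through a receptor that signals by way of the CD3 chains, the kinases Lck and Zap70 and the adaptor Lat. The co-receptors CD4 and CD8 separate helper from cytotoxic cells, Foxp3 marks regulatory T cells, and NK cells share perforin, granzymes and lectin-like receptors with cytotoxic T cells. B cells signal through CD79A and CD79B, and plasma cells, into which they mature, secrete antibody whose polymers are joined by the J chain. The healthy kidney holds few lymphocytes, and interstitial T and B cell infiltrates are a known feature of diabetic kidney disease.

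Promoter sequence shows how members that lie side by side or changed most differ at their starts. RefSeq promoter entries of build GRCm38.p6, the build named for these libraries, were found for 31 of the 43 genes. The 250 bases before the annotated start are printed 5′ to 3′ on the gene's own strand for 6 of them. Jchain (chr5:88527898-88528147, minus strand) and Pou2af1 (chr9:51213440-51213689, plus strand) are shown because their diabetes-associated differences were the largest among B and plasma cell genes in WT mice. Gzmk (chr13:113180966-113181215, minus strand) and Gzma (chr13:113100982-113101231, minus strand) are neighbouring granzyme genes with starts 79984 bases apart and diabetes estimates of opposite sign in WT mice. Cd3g (chr9:44980432-44980681, minus strand) and Cd3d (chr9:44981536-44981785, plus strand) are transcribed away from each other from starts 1355 bases apart. Capitals mark matches on either strand to GGAAGT, a core of ETS factor sites, or AACCACA, a RUNX factor site; ATTTGCAT, the octamer bound by Oct factors and their cofactor Pou2af1, was searched as well.
Jchain: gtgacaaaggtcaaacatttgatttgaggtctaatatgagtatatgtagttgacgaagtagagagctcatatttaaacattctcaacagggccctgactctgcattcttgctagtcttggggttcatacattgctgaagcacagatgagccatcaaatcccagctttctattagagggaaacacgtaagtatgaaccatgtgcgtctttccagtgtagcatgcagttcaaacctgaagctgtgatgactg
Pou2af1: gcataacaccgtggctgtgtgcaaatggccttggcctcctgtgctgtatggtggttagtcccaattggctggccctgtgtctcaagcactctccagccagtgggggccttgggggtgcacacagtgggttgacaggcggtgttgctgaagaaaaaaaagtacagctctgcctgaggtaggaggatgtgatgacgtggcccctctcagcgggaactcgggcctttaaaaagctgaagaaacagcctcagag
Gzmk: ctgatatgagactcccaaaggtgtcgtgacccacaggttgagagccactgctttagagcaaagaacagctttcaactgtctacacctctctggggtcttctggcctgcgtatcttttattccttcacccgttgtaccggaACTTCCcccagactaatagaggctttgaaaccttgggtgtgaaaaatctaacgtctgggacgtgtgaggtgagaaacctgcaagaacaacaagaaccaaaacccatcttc
Gzma: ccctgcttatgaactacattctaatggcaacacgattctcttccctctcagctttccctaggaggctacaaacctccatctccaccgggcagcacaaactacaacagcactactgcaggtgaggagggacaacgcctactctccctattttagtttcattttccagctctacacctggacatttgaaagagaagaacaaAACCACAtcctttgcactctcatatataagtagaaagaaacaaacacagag
Cd3g: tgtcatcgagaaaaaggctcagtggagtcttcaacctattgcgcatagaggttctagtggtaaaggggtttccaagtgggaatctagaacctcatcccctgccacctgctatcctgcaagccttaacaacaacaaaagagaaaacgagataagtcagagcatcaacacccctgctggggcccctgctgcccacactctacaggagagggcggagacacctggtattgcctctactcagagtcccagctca
Cd3d: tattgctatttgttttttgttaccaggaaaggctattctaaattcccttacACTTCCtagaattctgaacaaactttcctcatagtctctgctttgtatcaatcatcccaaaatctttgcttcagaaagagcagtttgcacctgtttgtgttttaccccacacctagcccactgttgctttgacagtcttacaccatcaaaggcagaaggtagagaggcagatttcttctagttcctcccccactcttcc

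The AACCACA match lay in the Gzma window and not in that of Gzmk, whereas the Gzmk and Cd3d windows each held 1 GGAAGT match. None of the 3 motifs overlapped another in these windows, and the windows of Jchain, Pou2af1 and Cd3g held none of them. Over the 39 promoter entries of the 31 genes, AACCACA was present in 17.9%, against 4.4% of all 32851 mouse entries of the same length. The genes with it were Lck, Klrk1, Ncr1, Gzma, Gzmb and Tnfrsf13c. GGAAGT was present in 35.9% of the members' entries against 19.7% of all, and ATTTGCAT in 0 of 39 entries against 1.60% of all. These motifs were chosen with expression results known, and the matches are a description of sequence.

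Cfb itself checked the labels, with 62.2 to 131 FPKM in control and 56.7 to 81.9 in diabetic WT kidneys, and no more than 2.22 FPKM in any Cfb-/- kidney. The sum of all FPKM ran from 330246 to 488196 per library, and the depths of the libraries relative to the deepest, read from the steps of low values, from 0.838 to 1. Absolute depth is unknown, so no counting interval is given. Kap, an androgen-regulated transcript of proximal tubules, was listed at 41536 to 67836 FPKM in WT controls against 9698 to 16015 with diabetes, and at 39707 to 43757 against 6671 to 12118 without Cfb. Across every gene tested, diabetes shifted the median by 0.29 on the log2 scale in the WT and 0.22 in the Cfb-/- genotype, and lymphocyte genes are read against these shifts. Median-ratio scaling brought the shifts to 0.03 and -0.01, and with it the higher share of all called genes went from 78.4% to 50.3% in WT mice and from 81.0% to 56.8% in Cfb-/- mice. Under quantile normalization these shares were 44.2% and 49.1%.

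Lymphocyte transcripts were scarce in control kidneys. Among T and NK genes, group means in WT control mice ran from 0.0156 FPKM for Foxp3 to 2.21 FPKM for Nkg7, a granule membrane protein of cytotoxic cells, and 2 of 29 genes averaged 1 FPKM or more. In both diabetic groups this number was 9 of 29. Jchain was the most abundant B and plasma cell gene in every group, with means of 2.77 ± 1.87 (SD, n = 3) in WT control, 4.43 ± 1.2 (SD, n = 3) in Cfb-/- control, 42.7 ± 21.7 (SD, n = 4) in WT diabetic and 21.8 ± 18.6 (SD, n = 4) in Cfb-/- diabetic mice. Levels differ between genes per length of transcript, and in bulk kidney RNA fewer cells of a type and less RNA per cell cannot be told apart. Individual mice within a group moved together across many members. Cfb-/- diabetic mouse 3 had the lowest value of its group in 36 of 42 genes, WT diabetic mouse 2 in 32 and Cfb-/- control mouse 2 in 31.

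Diabetes went with higher lymphocyte gene expression in both genotypes. In WT mice, 21 of 29 T and NK genes and 10 of 13 B and plasma cell genes were significantly higher in diabetic than in control kidneys, and none was significantly lower (limma, Benjamini-Hochberg adjusted p under 0.05), with 36.2% of all genes tested called higher and 9.97% lower. In Cfb-/- mice, 26 of 29 and 7 of 13 were higher and none was lower, with 27.4% of all genes tested called higher and 6.4% lower. Without the 5 genes that no control mouse brought to the filter, 19 of 27 T and NK and 8 of 10 B and plasma cell genes were higher in WT mice, and 24 and 5 in Cfb-/- mice. Genes that needed some diabetic mice to pass, such as Icos and Pou2af1, remain in these counts. Median log2 fold changes were 1.16 for T and NK genes and 1.23 for B and plasma cell genes in WT mice, against 0.29 over all genes. The medians in Cfb-/- mice were 1.28 and 0.91, against 0.22. Control and diabetic values did not overlap, with the diabetic mice higher, for 25 of 42 genes in WT mice (35.5% of all genes tested) and for 24 of 42 in Cfb-/- mice (33.6%). These counts include genes that passed the filter through diabetic mice alone, and are a description. Such genes were Foxp3, Pdcd1, Fcer2a, Bank1 and Tnfrsf17 in WT mice, and Foxp3, Pdcd1 and Fcer2a in Cfb-/- mice. Without WT diabetic mouse 2 and Cfb-/- diabetic mouse 3, an omission chosen after seeing the data, 21 and 10 genes were called higher in WT and 25 and 11 in Cfb-/- mice. Both mice were left out because they were lowest in most members, a choice that raises the diabetic means of those members. No share over all genes is given for this fit. Under median-ratio scaling 13 T and NK and 9 B and plasma cell genes were called higher in WT mice, where 22.7% of all genes tested were, and 21 and 2 in Cfb-/- mice, where 18.5% were. Under quantile normalization the numbers higher were 9 and 2 in WT mice (15.9% of all genes tested) and 7 and 1 in Cfb-/- mice (14.4%), and Cd8a, Gzma and Cr2 were called lower in WT mice and Cr2 in Cfb-/- mice. The 2 of 13 B and plasma cell genes higher in Cfb-/- mice under median-ratio scaling, and the B and plasma cell genes higher in either genotype under quantile normalization, are no larger shares than over all genes.

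**Figure D1:**
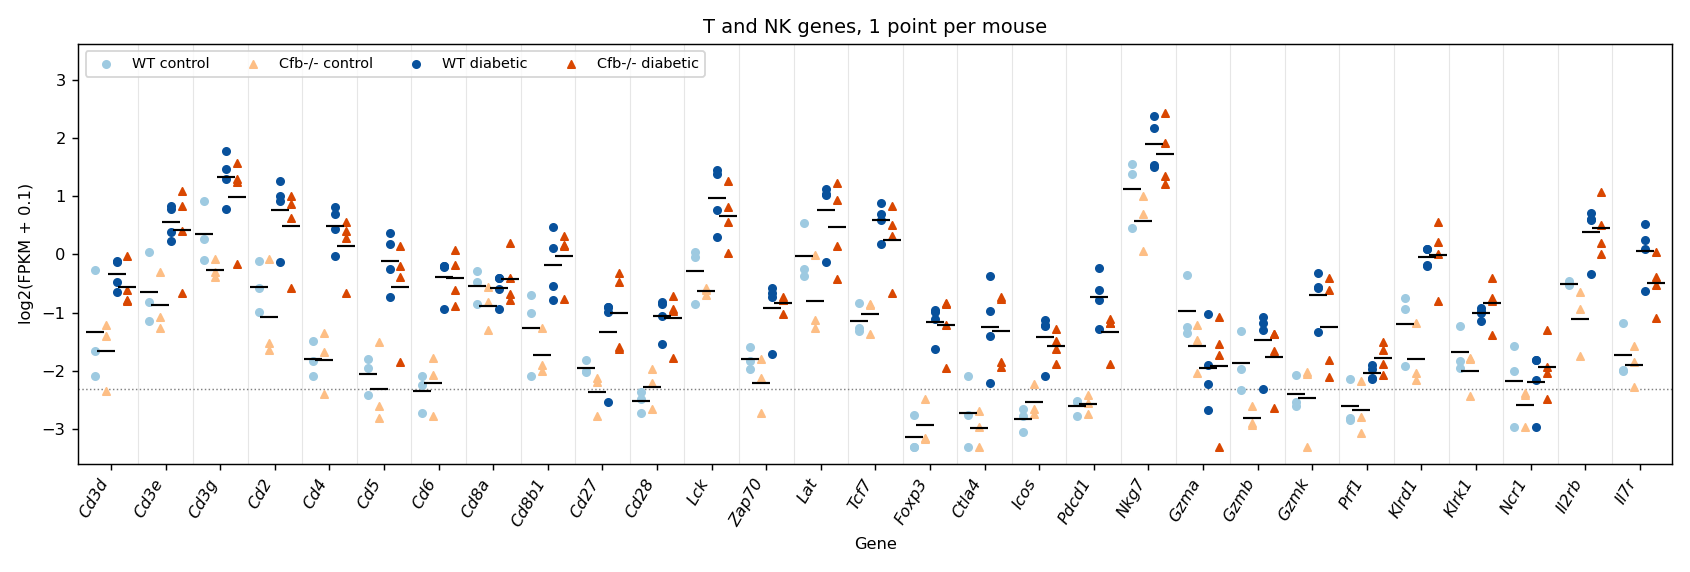
Level of the 29 T and NK genes in each mouse, as log2(FPKM + 0.1) on the vertical axis, with circles for WT and triangles for Cfb-/- mice, pale for control and dark for diabetic, a black dash at each group mean on this scale, and a dotted line at 0.1 FPKM. Dark points sit above pale points for most genes, while Cd8a, Gzma and Ncr1, called in neither genotype, show mixed groups.

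Of the receptor complex and its co-receptors, Cd4 changed most and Cd8a was not called. Cd4, the helper co-receptor, was 0.134, 0.256 and 0.180 FPKM in the 3 WT control and 1.66, 0.879, 1.26 and 1.52 in the 4 WT diabetic mice. In Cfb-/- mice it was 0.212, 0.0883 and 0.291 in controls and 1.11, 1.37, 0.529 and 1.22 in diabetic kidneys. No diabetic mouse overlapped a control. The log2 fold changes of Cd4 were 2.29 ± 0.32 (SE) in WT and 1.95 ± 0.32 in Cfb-/- mice (limma adjusted p = 0.0001 and 0.000376). On the log2(FPKM + 0.1) scale they were the largest of any T and NK gene in each genotype. This rank rests on the added 0.1, which holds down the fold changes of less abundant genes. By the ratio of group means, Foxp3 and Pdcd1 were ahead of Cd4 in WT mice. By the same ratio, Ctla4, Foxp3, Cd5 and Cd6 were ahead of it in Cfb-/- mice. Cd8a, one chain of the cytotoxic co-receptor, was 0.721, 0.451 and 0.622 in WT control, 0.657, 0.421, 0.656 and 0.562 in WT diabetic, 0.465, 0.576 and 0.308 in Cfb-/- control and 0.655, 1.05, 0.483 and 0.524 in Cfb-/- diabetic mice. Its groups overlapped, and its log2 fold changes of -0.05 ± 0.26 and 0.48 ± 0.26 did not pass the test (adjusted p = 0.896 and 0.176). Cd8b1, the partner chain, was called higher in both genotypes, at 0.480 to 1.29 in WT diabetic against 0.136 to 0.514 in WT control and at 0.489 to 1.15 against 0.149 to 0.314 in Cfb-/- mice (in the latter 1.70 ± 0.38, adjusted p = 0.00345). The 3 CD3 chains were all called higher in both genotypes. Cd3e was 0.464, 0.936 and 0.352 in WT control and 1.69, 1.2, 1.07 and 1.62 in WT diabetic mice, with no overlap. In Cfb-/- controls it was 0.318, 0.376 and 0.714, and of the diabetic values of 1.68, 2.03, 0.531 and 1.22 that of mouse 3 lay among the controls. The scavenger receptors Cd5 and Cd6, which tune T cell receptor signals, were higher as well. Cd6 was 0.134, 0.0516 and 0.111 in WT control and 0.767, 0.421, 0.760 and 0.768 in WT diabetic mice, whereas the Cfb-/- controls had 0.138, 0.0457 and 0.191 and the Cfb-/- diabetic mice 0.777, 0.950, 0.443 and 0.557. The groups did not overlap in either genotype (1.96 ± 0.30, adjusted p = 0.000184 in WT and 1.81 ± 0.30, adjusted p = 0.000385 in Cfb-/- mice). Cd5 differed by 1.95 ± 0.44 in WT mice (adjusted p = 0.00291).

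Genes of signalling, co-stimulation and survival were higher in both genotypes except Lat and Cd27, which were called in Cfb-/- mice alone. Lck, the first kinase of the receptor, and Zap70, the kinase it recruits, were called higher in both genotypes, with Lck at 1.13 to 2.63 in WT diabetic against 0.452 to 0.925 in WT control mice. Zap70 in Cfb-/- mice was 0.130, 0.0506 and 0.186 in controls and 0.50, 0.481, 0.390 and 0.480 with diabetes, without overlap (1.39 ± 0.28, adjusted p = 0.00174). Lat is the membrane adaptor, and in WT mice its values of 0.742, 1.36 and 0.672 in controls and 1.94, 0.812, 1.93 and 2.08 in diabetic kidneys overlapped (0.79 ± 0.43, adjusted p = 0.148). Cd28, the main co-stimulatory receptor, was 0.0777, 0.0506 and 0.0949 in WT control and 0.455, 0.245, 0.470 and 0.380 in WT diabetic mice (1.46 ± 0.28). Tcf7, a transcription factor of naive and memory T cells, was 0.302, 0.314 and 0.459 in the former and 1.41, 1.04, 1.51 and 1.74 in the latter group (1.73 ± 0.30, adjusted p = 0.000468). Il7r, the survival receptor for IL-7, was 0.340, 0.15 and 0.151 in WT controls and 1.34, 0.544, 0.965 and 1.08 with diabetes (1.78 ± 0.32, adjusted p = 0.000647). None of these last 3 genes overlapped between WT control and WT diabetic mice, and all were called in Cfb-/- mice too. Cd28 needed diabetic mice to pass the filter, so its difference is a description and no p is given for it. Cd27 is a co-stimulatory receptor of the TNF family, and WT diabetic mouse 2 at 0.0727 lay below its controls (WT 0.62 ± 0.42, adjusted p = 0.235).

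Regulatory and checkpoint genes were no higher than 0.135 FPKM in any control mouse and were detected in every diabetic mouse. Foxp3 was 0.0468, 0 and 0 in WT control and 0.0120, 0.0106 and 0.0782 in Cfb-/- control mice. It was 0.417, 0.222, 0.364 and 0.404 in WT diabetic and 0.454, 0.458, 0.158 and 0.330 in Cfb-/- diabetic mice, with no overlap in either genotype. The log2 fold changes, which the pseudocount of 0.1 holds down at such levels, were 1.97 ± 0.30 and 1.72 ± 0.30. Pdcd1, which encodes the inhibitory receptor PD-1, was 0.0726, 0.0738 and 0.0455 in WT control and 0.480, 0.311, 0.552 and 0.747 in WT diabetic mice. In Cfb-/- mice it was 0.0495, 0.0877 and 0.0693 in controls and 0.341, 0.340, 0.172 and 0.364 with diabetes, again without overlap. Its log2 fold changes were 1.88 ± 0.26 and 1.24 ± 0.26. Foxp3 and Pdcd1 entered the test through diabetic mice alone, so these differences are a description and no p is given for them. Icos, an inducible co-stimulator, was 0.0448, 0.0208 and 0.0584 in WT control mice. In WT diabetic mice it was 0.329, 0.134, 0.324 and 0.358 (1.41 ± 0.26). Ctla4, an inhibitory receptor of regulatory and activated T cells, was called in both genotypes and listed at 0 in 1 mouse of each control group. Icos and Ctla4 each reached 0.1 FPKM in 1 control mouse and needed diabetic mice to pass the filter. Their differences are a description as well.

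Cytotoxic and NK genes split. Gzmk, a granzyme of memory and effector CD8 T cells, was 0.0715, 0.137 and 0.0646 in WT control and 0.577, 0.296, 0.704 and 0.573 in WT diabetic mice without overlap (1.71 ± 0.43, adjusted p = 0.00577), and was called in Cfb-/- mice too, where groups overlapped. Gzma, its neighbour on chromosome 13, was 0.321, 0.687 and 0.293 in WT control, 0.0558, 0.113, 0.167 and 0.390 in WT diabetic, 0.333, 0.144 and 0.262 in Cfb-/- control and 0.372, 0.20, 0.245 and 0 in Cfb-/- diabetic mice. Its estimates were below 0 in both genotypes, -0.98 ± 0.49 and -0.35 ± 0.49, and did not pass (adjusted p = 0.112 and 0.608). Ncr1, which encodes the NK receptor NKp46, stayed between 0 and 0.4 FPKM in every mouse, at 0.0273 to 0.237 in WT control and 0.0273 to 0.186 in WT diabetic mice, and was not called in WT (-0.01 ± 0.38) or Cfb-/- mice (0.65 ± 0.38, adjusted p = 0.204). Klrd1 (CD94) and Klrk1 (NKG2D), receptors shared by NK and CD8 T cells, were called higher in both genotypes. Klrd1 was 0.341, 0.143 and 0.125 in Cfb-/- control and 1.05, 0.905, 0.472 and 1.37 in Cfb-/- diabetic mice (1.78 ± 0.34, adjusted p = 0.00118). Klrk1 was 0.188, 0.192 and 0.0845 in the former and 0.494, 0.653, 0.284 and 0.472 in the latter (1.17 ± 0.26, adjusted p = 0.00317). Il2rb, the shared IL-2 and IL-15 receptor chain, was 0.419, 0.197 and 0.539 in Cfb-/- controls and 1.32, 2.01, 0.902 and 1.05 with diabetes (1.56 ± 0.32, adjusted p = 0.00166), and none of the 3 overlapped. Nkg7, Gzmb and the pore-forming Prf1 were called in Cfb-/- mice alone. In WT mice their log2 fold changes were 0.77 ± 0.35, 0.40 ± 0.36 and 0.56 ± 0.26 (adjusted p = 0.084, 0.377 and 0.0858), and under quantile normalization those of Gzmb, Prf1 and Cd27 in WT mice turned negative. Leaving out Cfb-/- control mouse 2 lowered the number of T and NK genes called in Cfb-/- mice from 26 to 16, with no share over all genes given for that fit.

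**Figure D2:**
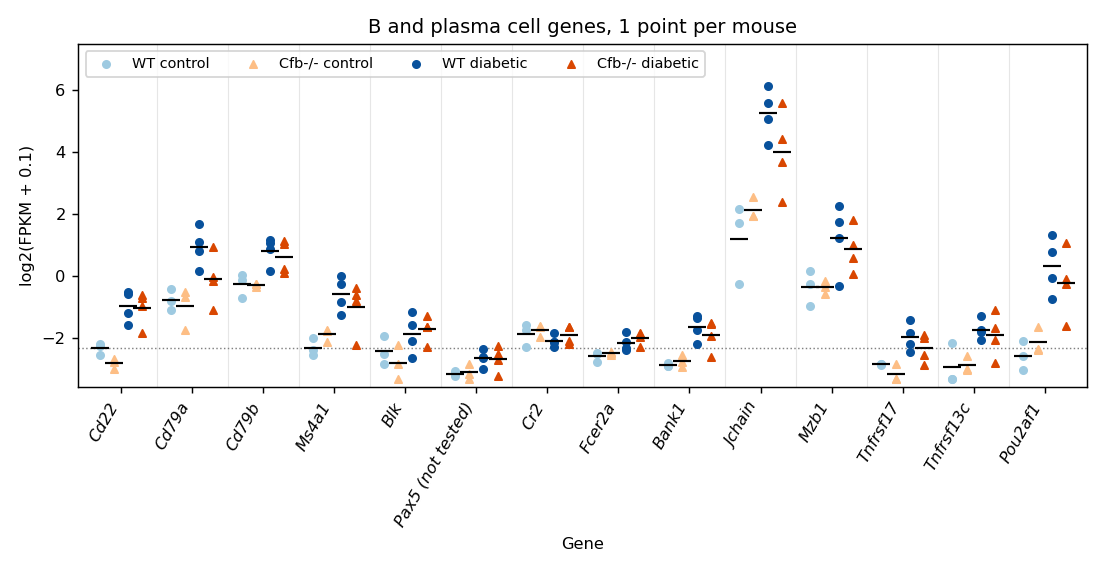
Level of the 14 B and plasma cell genes in each mouse, as log2(FPKM + 0.1) on the vertical axis, with the same symbols, dashes for group means and dotted line at 0.1 FPKM as for the T and NK genes. Jchain stands highest in every group, Cr2 and Fcer2a stay near the dotted line, and the Cfb-/- diabetic mice spread widely.

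Among B and plasma cell genes, Jchain and Pou2af1 showed the largest changes in WT mice. Jchain, which encodes the J chain of secreted IgM and IgA, was 0.737, 3.15 and 4.42 in WT control and 33.9, 18.9, 69.9 and 48.3 in WT diabetic mice without overlap (4.06 ± 0.67, adjusted p = 0.000318). In Cfb-/- mice it was 3.75, 3.73 and 5.81 in controls and 21.4, 12.8, 5.10 and 47.8 in diabetic kidneys, where mouse 3 lay below the highest control (1.87 ± 0.67, adjusted p = 0.0438). Pou2af1, the octamer cofactor needed for germinal centre B cells, was 0.0658, 0.0207 and 0.135 in WT control, 0.867, 0.502, 2.40 and 1.60 in WT diabetic, 0.0904, 0.0955 and 0.216 in Cfb-/- control and 0.845, 0.738, 0.223 and 2.01 in Cfb-/- diabetic mice. It was called in both genotypes without overlap (2.90 ± 0.55 and 1.92 ± 0.55). Pou2af1 needed diabetic mice to pass the filter, so this is a description and no p is given for it. Mzb1, a chaperone of antibody assembly in the endoplasmic reticulum, was called in WT mice alone, and in Cfb-/- mice its values of 0.567, 0.683 and 0.792 in controls and 1.89, 1.39, 0.938 and 3.43 with diabetes did not overlap but missed the threshold (1.23 ± 0.51, adjusted p = 0.0795). Tnfrsf17, the plasma cell survival receptor BCMA, reached at most 0.0404 in any control, against 0.0811 to 0.277 in WT and 0.0357 to 0.169 in Cfb-/- mice with diabetes, a description since it entered the test through diabetic mice alone.

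On the log2(FPKM + 0.1) scale, B cell receptor and surface genes gave smaller differences than Jchain and Pou2af1. By the ratio of group means in Cfb-/- mice, Cd22 at 9.70 was ahead of Pou2af1 at 7.13 and Jchain at 4.92. By that ratio Tnfrsf13c, at 5.19, was also ahead of Jchain. Cd79a, a signalling chain of the receptor, was 0.368, 0.476 and 0.650 in WT control and 1.65, 1.02, 3.12 and 2.03 in WT diabetic mice (1.71 ± 0.44, adjusted p = 0.00679). In Cfb-/- mice it was 0.521, 0.198 and 0.602 in controls and 0.884, 0.798, 0.363 and 1.81 with diabetes, with overlap, and missed the threshold (0.89 ± 0.44, adjusted p = 0.137). Its partner chain Cd79b passed in both genotypes, with 1.08 ± 0.30 in WT and 0.91 ± 0.30 in Cfb-/- mice (adjusted p = 0.00941 and 0.0293). Ms4a1, which encodes CD20, was 0.0717, 0.0901 and 0.147 in WT controls and 0.456, 0.316, 0.899 and 0.739 with diabetes (1.73 ± 0.40, adjusted p = 0.00321), and 0.197, 0.126 and 0.192 in Cfb-/- controls and 0.470, 0.548, 0.113 and 0.668 with diabetes (0.88 ± 0.40, adjusted p = 0.103). Cd22, an inhibitory lectin of B cells, was 0.0457, 0.0573 and 0.0254 in Cfb-/- control and 0.409, 0.511, 0.181 and 0.560 in Cfb-/- diabetic mice. This was the largest change among receptor and surface genes in that genotype (1.79 ± 0.32), and Cd22 differed by 1.36 ± 0.32 in WT mice. The scaffold Bank1 was 0.0336 to 0.0417 in WT controls and 0.119 to 0.308 with diabetes, and it entered the test through diabetic mice alone. The BAFF receptor Tnfrsf13c passed in WT mice alone and the kinase Blk in Cfb-/- mice alone. Cd22, Tnfrsf13c and Blk needed some diabetic mice to pass the filter, so their differences are a description. Cr2 and Fcer2a, the complement receptor CD21 and the low-affinity IgE receptor CD23 of mature follicular B cells, passed in neither. Cr2 was 0.104 to 0.235 in WT control and 0.105 to 0.180 in WT diabetic mice (-0.22 ± 0.23), and Fcer2a 0.0442 to 0.0790 and 0.0898 to 0.186 (0.44 ± 0.21). Pax5, which was not tested, was 0.0128, 0.00646 and 0.0179 in WT controls, 0.0634, 0.0254, 0.0930 and 0.0595 in WT mice with diabetes, 0.0394, 0 and 0.0122 in Cfb-/- controls and 0.0730, 0.0537, 0.00570 and 0.108 in Cfb-/- mice with diabetes. The number of B and plasma cell genes called in Cfb-/- mice, 7, depended on single animals: it was 12 without Cfb-/- diabetic mouse 3, 2 without mouse 2 or mouse 4, 3 without mouse 1, 1 without Cfb-/- control mouse 2 and 3 without control mouse 1 or 3. No share over all genes is given for these fits, so the counts are a description.

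**Figure D3:**
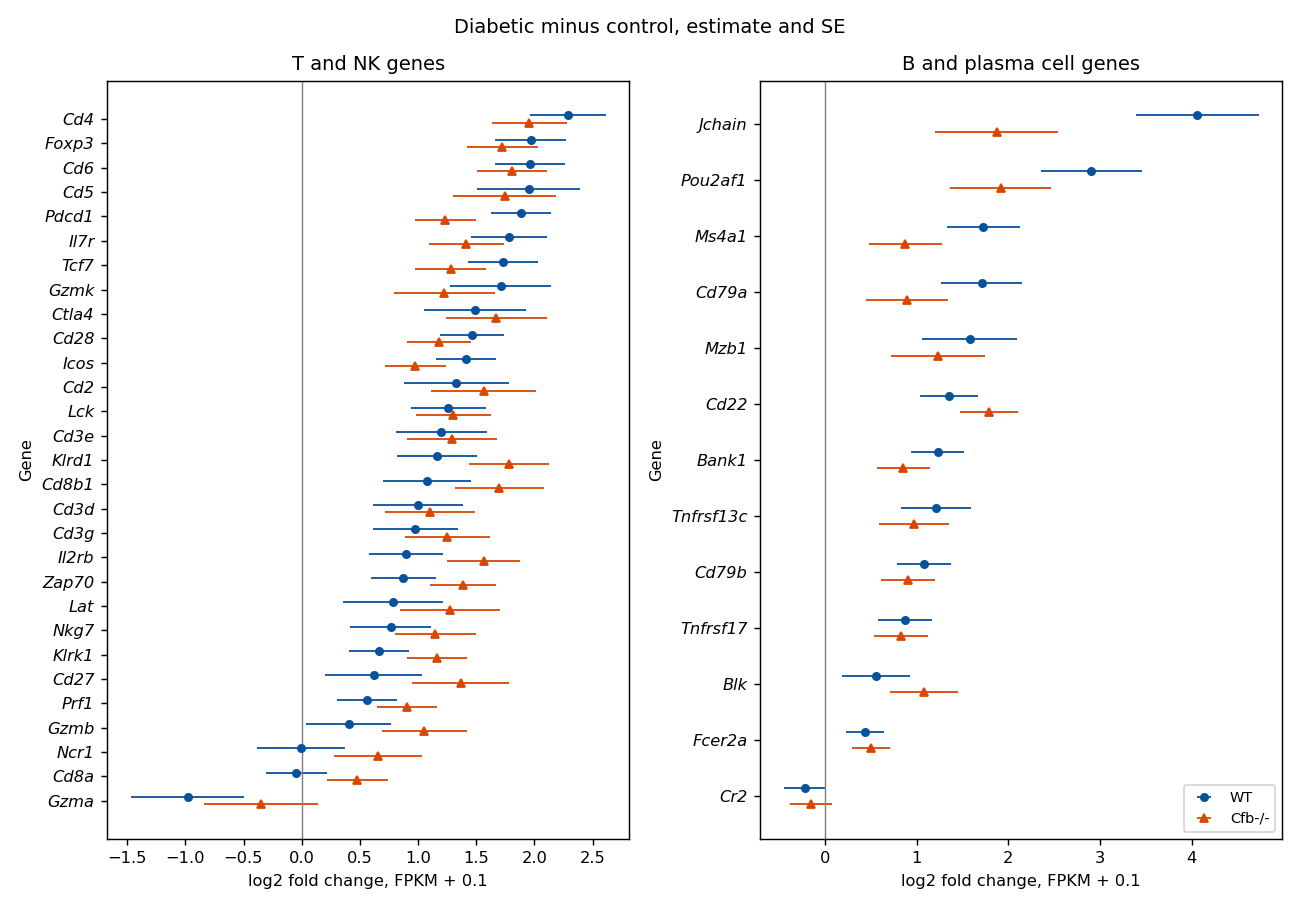
Log2 fold change of diabetic against control mice, on log2(FPKM + 0.1), for the 42 genes tested, with blue circles for WT and orange triangles for Cfb-/- mice and bars for the standard error of the fit, ordered within each class by the WT estimate. Most estimates lie right of 0 in both genotypes; Gzma and Cr2 lie left of it in both, Jchain is farthest right in WT mice at 4.06, and Cd4 is farthest right in Cfb-/- mice at 1.95.

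The 2 diabetes comparisons share no mouse, and 27 of 42 genes were called higher in both, 21 of 29 T and NK and 6 of 13 B and plasma cell genes, where 22.7% of all genes tested were. Without the 5 genes that passed the filter through diabetic mice alone, these were 19 of 27 and 4 of 10. Both still hold genes that needed some diabetic mice to pass. Every T and NK gene called in WT mice was thus called in Cfb-/- mice, and Cd27, Lat, Nkg7, Gzmb and Prf1 were called in Cfb-/- mice alone. Cd79a, Ms4a1, Mzb1 and Tnfrsf13c were called in WT mice alone, Blk in Cfb-/- mice alone, and Cd8a, Gzma, Ncr1, Cr2 and Fcer2a in neither. A test of the difference between the genotypes gave 0 calls among the 42 genes and 0% of all genes tested at adjusted p under 0.05 (limma interaction). At an unadjusted p under 0.05 it gave 1 of 42 genes, Jchain, against 5.77% of all genes tested. Its diabetes change was smaller in Cfb-/- mice by 2.19 ± 0.95 on the log2 scale. The unadjusted p from limma was 0.0365 and the adjusted p 0.779. Genes called in 1 genotype alone are therefore not shown to differ between genotypes.

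Ratios within a mouse do not change when a library is scaled by 1 factor, though quantile normalization can change them. They are given as values without a test because the pairs were chosen after the levels were seen. The ratio of Cd4 to Cd8a was 0.186, 0.567 and 0.290 in WT control and 0.457, 0.153 and 0.945 in Cfb-/- control mice. It was 2.52, 2.09, 1.92 and 2.71 in WT diabetic and 1.70, 1.31, 1.10 and 2.32 in Cfb-/- diabetic mice. All 8 diabetic mice were above all 6 controls. This separation did not hold for the partner chain Cd8b1. In WT control mouse 3, Cd4 was above Cd8b1 (0.180 against 0.136 FPKM). In Cfb-/- diabetic mouse 1 it was below Cd8b1 (1.11 against 1.15 FPKM). The ratio of Foxp3 to Cd3e ran from 0 to 0.109 in controls and from 0.185 to 0.339 in diabetic mice, without overlap. Foxp3 passed the filter through diabetic mice alone, so this separation is a description. Jchain over Cd79a was 2.0 to 6.79 in WT control and 18.4 to 23.8 in WT diabetic mice, while in Cfb-/- mice 7.19 to 18.9 in controls overlapped 14.1 to 26.4 in diabetic kidneys. Cd3e over Ptprc, the common leukocyte antigen CD45, did overlap, at 0.186 to 0.823 in controls of both genotypes and 0.121 to 0.333 in diabetic mice. The summed T and NK FPKM was 0.171 to 0.251 of the summed FPKM of 15 pan-leukocyte genes in WT control, 0.130 to 0.179 in Cfb-/- control, 0.142 to 0.191 in WT diabetic and 0.124 to 0.175 in Cfb-/- diabetic mice. Relative to 18 macrophage and dendritic cell genes the same sum was 0.128 to 0.158 in WT control against 0.0598 to 0.10 in WT diabetic mice, and 0.0897 to 0.134 against 0.0556 to 0.0815 in Cfb-/- mice, with diabetic values below controls in both genotypes.

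**Figure D4:**
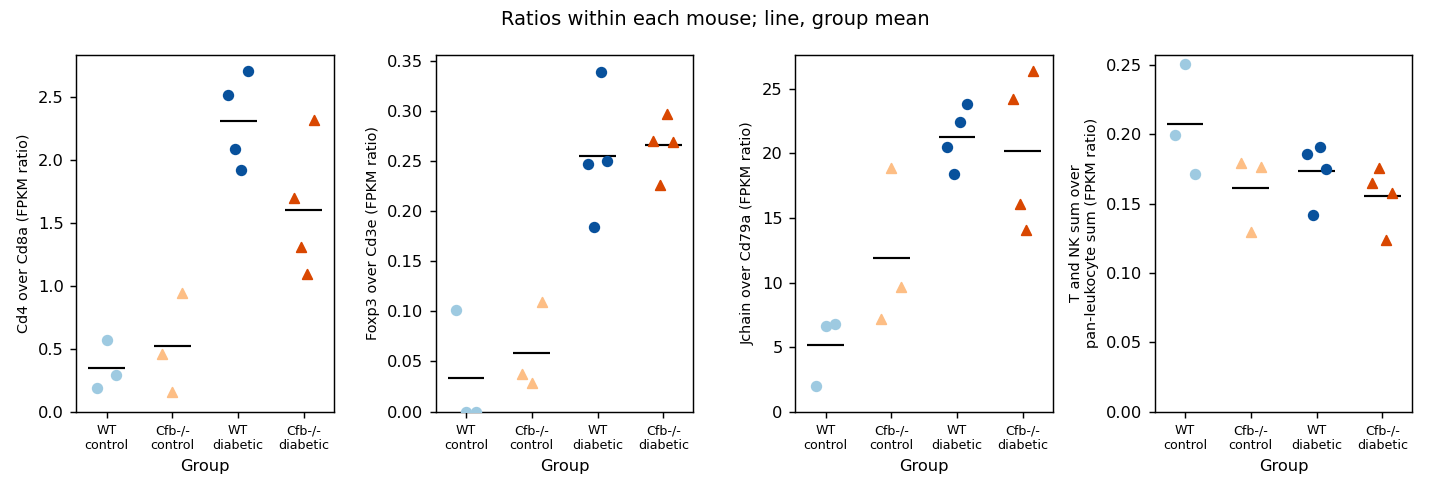
FPKM ratios within each mouse by group, each vertical axis starting at 0, with a line at the group mean: Cd4 over Cd8a, Foxp3 over Cd3e, Jchain over Cd79a, and the summed T and NK genes over the summed pan-leukocyte genes. The first 2 ratios separate all diabetic from all control mice, while the last one overlaps between groups. Cd8a is one chain of its co-receptor, and Foxp3 passed the filter through diabetic mice alone.

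Of the further pathway lists, each is read against the 36.2% of all genes tested that were higher in WT and the 27.4% higher in Cfb-/- mice. Of 30 other T cell receptor signalling genes tested, 22 were higher in WT and 18 in Cfb-/- diabetic mice and none was lower, with median log2 fold changes of 0.95 and 0.97. They included Lcp2, the adaptor SLP-76 (1.87 ± 0.26 in WT and 2.06 ± 0.26 in Cfb-/- mice), and the checkpoint receptor Tigit (1.99 ± 0.25 and 1.68 ± 0.25). Bcl11b, Tbx21, Rora, Ifng and Cd40lg were called in neither genotype. Of 11 other NK and cytotoxic genes tested, 3 were higher in WT mice (Tyrobp, Gzmm and Eomes) and 5 in Cfb-/- mice (Tyrobp, Gzmm, Ccl5, Klrb1c and Klrc1), in WT mice a smaller share than over all genes. Tyrobp, an adaptor that macrophages also express, had the smallest p in both. Of 24 other B cell receptor and plasma cell genes tested, 15 were higher in WT and 18 in Cfb-/- mice, with Irf4, a transcription factor of plasma cells and activated lymphocytes, at 1.94 ± 0.26 and 2.13 ± 0.26. Spi1, Pik3ap1 and Cd180 of this list are expressed by myeloid cells as well, and Xbp1 and Prdm1 were called in neither genotype. The immunoglobulin constant region genes listed, among them Ighm, Igkc and Igha, were not found under these symbols and so were not analysed here.

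Genes of lymphocyte homing and lymphoid aggregates were higher in 16 of 19 cases tested in WT (36.2% of all genes tested) and 14 of 19 in Cfb-/- mice (27.4%). Cxcl13, the chemokine that attracts B cells to follicles, was 0.146 to 0.337 in WT control and 0.884 to 3.22 in WT diabetic mice (2.79 ± 0.59, adjusted p = 0.00184). Tnfsf13b, the B cell survival factor BAFF, differed by 1.48 ± 0.26 and 1.98 ± 0.26, and Cxcr4 by 1.72 ± 0.22 and 1.71 ± 0.22. Chst4 was listed at 0 in every mouse, Glycam1 at no more than 0.0674 and Madcam1 at no more than 0.0668, 3 genes that mark the high endothelium of lymph nodes and gut.

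Of the markers of other cell types, pan-leukocyte and macrophage and dendritic cell genes were, like the lymphocyte genes, mostly higher with diabetes in both genotypes. The other lists held genes called lower, or few or none called higher in Cfb-/- mice. The part of these cell types in the results was not tested. Over all genes tested, 36.2% were higher and 9.97% lower in WT mice, and 27.4% and 6.4% in Cfb-/- mice. Pan-leukocyte genes were higher in 14 of 15 cases in each genotype, with sums of 42.4 to 62.4 FPKM in control and 107.5 to 190.4 in diabetic mice. Macrophage and dendritic cell genes were higher in 15 and 16 of 17, with sums of 61.2 to 94.3 in control and 239 to 433 in diabetic mice. Cfb-/- diabetic mouse 3 had the lowest sum of both lists among diabetic mice. Urothelium genes, with 7 of 7 higher in WT mice and none of 7 called in Cfb-/- mice, summed to 0.537 to 1.18 FPKM in WT controls and 3.82 to 88.0 with diabetes, the highest in WT diabetic mouse 2. The sums without Cfb were 1.34 to 23.4 in controls and 4.45 to 10.8 with diabetes. Of 5 erythroid genes, 2 were lower in WT and 4 in Cfb-/- diabetic mice. Of 11 neutrophil and mast cell genes, 4 passed the filter and 1 was higher in each genotype (Csf3r) and 1 lower in Cfb-/- mice (S100a9), and the neutrophil markers Mpo, Elane and Ly6g were listed at 0 in every control. Adipocyte genes were higher in 6 of 7 cases in WT and 1 of 7 in Cfb-/- mice, and of 10 kidney tubule and podocyte genes 2 were higher in each genotype and 3 and 4 lower. The 2 of 10 and 1 of 7 higher are smaller shares than over all genes.

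Deletion of Cfb in diabetic mice went with no called lymphocyte gene. None of 29 T and NK and none of 13 B and plasma cell genes differed between Cfb-/- and WT diabetic mice at adjusted p under 0.05 (limma), where 1 gene of all tested, Cfb, did (0.00671% of all genes tested). At an unadjusted p under 0.05 there were 2 of 42, Pdcd1 and Cd79a, against 3% of all genes tested. The groups overlapped for all 42 genes, while 2.75% of all genes tested did not overlap. Estimates were below 0 for 29 genes and above 0 for 13, with medians of -0.14 for T and NK genes and -0.26 for B and plasma cell genes against 0.04 over all genes. Pdcd1, the values of which are given above, was lower in Cfb-/- mice by an estimate of -0.61 ± 0.24 (unadjusted p = 0.0235, exact permutation p = 0.114). Cd79a gave -1.03 ± 0.41 (unadjusted p = 0.0248, exact permutation p = 0.0857), and Jchain -1.25 ± 0.62 (unadjusted p = 0.0641, exact permutation p = 0.171). Il7r, Gzmk and Tnfrsf17 followed with -0.55 ± 0.30, -0.54 ± 0.40 and -0.35 ± 0.27. The adjusted p of each was 1. The smallest exact two-sided p that 4 mice against 4 allow is 0.0286. Standard errors over the 42 genes ran from 0.19 to 0.62 on the log2 scale, and a missed threshold does not show equal levels.

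In control mice the deletion gave no called lymphocyte gene either, with Cfb again the 1 gene called (0.00671% of all genes tested). At an unadjusted p under 0.05 there was 1 of 42, Gzmb, against 17.5% of all genes tested. Gzmb was 0.0996, 0.300 and 0.155 in WT control and 0.0342, 0.0300 and 0.0644 in Cfb-/- control mice (-0.94 ± 0.39, unadjusted p = 0.0297, adjusted p = 0.259). Groups did not overlap for 4 of 42 genes (Gzmb, Il2rb, Cd22 and Cd27), all lower in Cfb-/- mice, against 13.8% of all genes tested. Il2rb was 0.596, 0.625 and 0.599 in WT and 0.419, 0.197 and 0.539 in Cfb-/- control mice (-0.61 ± 0.34), and Cd22 0.0713, 0.120 and 0.110 and 0.0457, 0.0573 and 0.0254 (-0.49 ± 0.34). Lat, Jchain and Ms4a1 gave -0.78 ± 0.46, 0.94 ± 0.72 and 0.43 ± 0.42. The medians were -0.33 for T and NK genes and 0.05 for B and plasma cell genes, against 0.06 over all genes. With 3 mice against 3 the smallest exact two-sided permutation p is 0.10, so no single gene could pass 0.05 by that test.

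**Figure D5:**
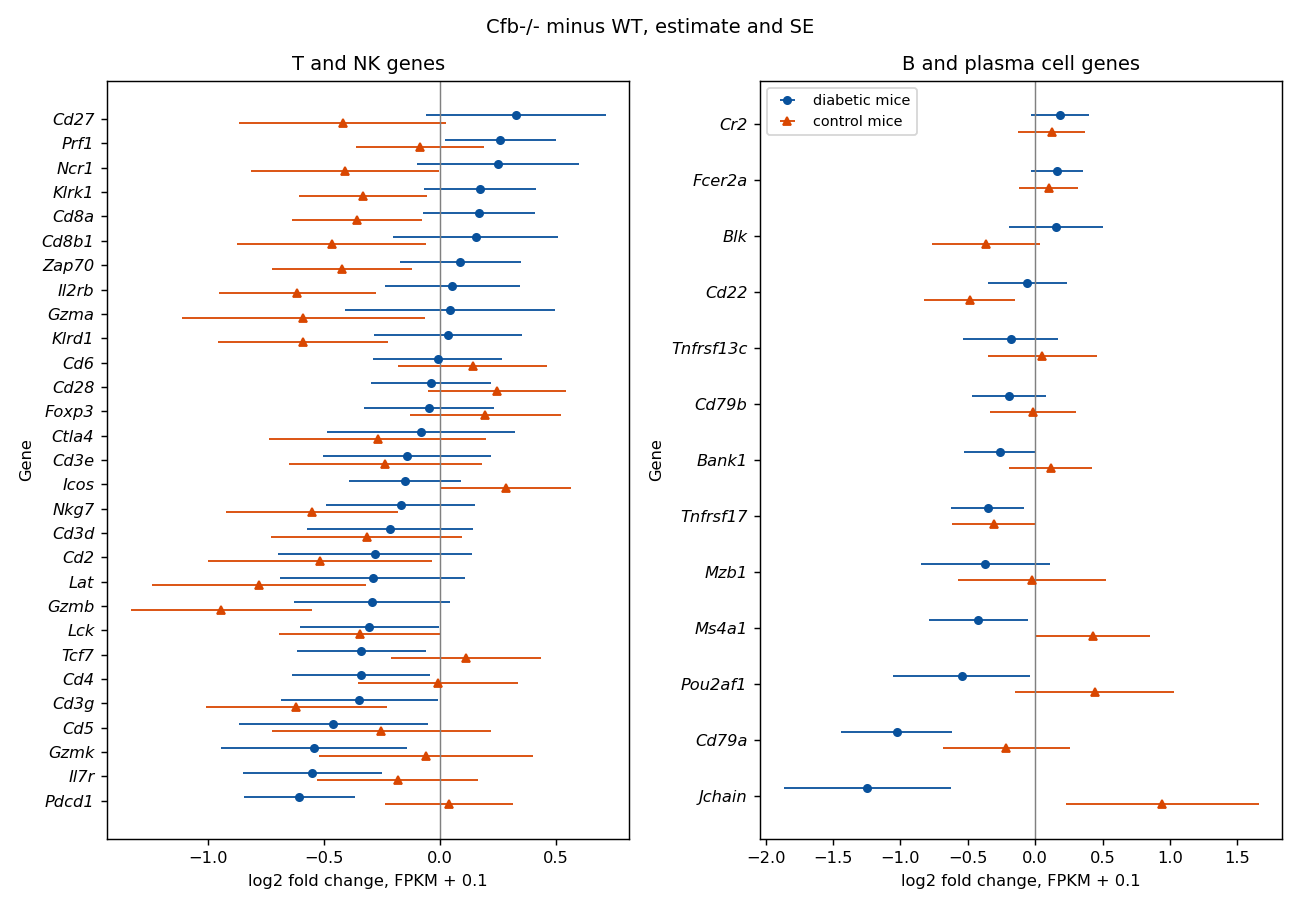
Log2 fold change of Cfb-/- against WT mice, on log2(FPKM + 0.1), for the 42 genes tested, with blue circles for diabetic and orange triangles for control mice and bars for the standard error of the fit, ordered within each class by the estimate in diabetic mice. Most estimates lie between -1 and 0.5, and none passed the adjusted threshold in either comparison.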

How the data were processed

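Total RNA of mouse kidneys was sequenced from TruSeq stranded mRNA libraries on an Illumina HiSeq. The submitters' processing notes name Trimmomatic, HISAT2, Cufflinks, HTSeq, DESeq and build GRCm38.p6, and versions and parameters are not given in the sources used here. The authors deposited 1 table of expression values per mouse for 21878 genes. The values carry no unit and were taken as FPKM, from the values themselves and from Cufflinks among the tools named. Groups follow the sample titles, since the genotype label says knockdown and the treatment label repeats the diabetic text for control mice. Replicates are separate mice.

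FPKM were taken as deposited, as log2(FPKM + 0.1), for 14912 genes with at least 0.1 in 3 mice, and fitted with limma 3.58.1 (R 4.3.3, mean-variance trend) over all 14 mice with 1 coefficient per group. P-values were Benjamini-Hochberg adjusted over all genes tested and called under 0.05. Because the values were taken as FPKM, a count model was not used. Fold changes on this scale understate the change of low genes. Single members were compared by an exact two-sided permutation test of the mean log2 value. Members and lists were chosen with earlier results of these data known. Members given in every mouse were at most 10 T and NK and 8 B and plasma cell genes per comparison with the smallest p among those called, those not called, and, where none was called, 3 of each class. Other lists were summarised by counts and up to 5 genes by p. The fit was tested on simulated data. Pseudocounts of 1 and 0.01, other filters and scalings, the compared groups alone, a replicate block and omission of each mouse were tried. Promoter sequences came from RefSeq, GRCm38.p6.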

Additional observations from a re-analysis of the deposited data

Results flagged for a closer look

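Among the 84 sets of 4 diabetic mice, 1 for each of 42 genes and 2 genotypes, 6 (7.14%) held a mouse set apart from the other 3 by a gap past Dixon's 95% limit for the group's range, where chance flags about 1 in 20. In WT diabetic mouse 2, Cd6 was 0.421 FPKM against 0.760 to 0.768 in the other mice, Cd27 0.0727 against 0.405 to 0.436, and Lat 0.812 against 1.93 to 2.08. In the same mouse Icos was 0.134 against 0.324 to 0.358 and Il2rb 0.689 against 1.41 to 1.54. In Cfb-/- diabetic mouse 3, Pdcd1 was 0.172 against 0.340 to 0.364. All 6 are low values, in the diabetic mouse of each genotype that was lowest in most members. The groups of 3 control mice were not tested in this way.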

How the results depend on the processing

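FPKM without counts leaves the depth unknown, and single-fragment steps are visible in the least abundant members, so a value of 0 is listed as 0 only. Counts of members called rest on adjusted p over all genes tested. Main counts for diabetes were 21 T and NK and 10 B and plasma cell genes in WT mice, and 26 and 7 in Cfb-/- mice. Requiring 1 FPKM in 3 mice gave 9, 5, 11 and 3, where fewer members were tested. Of the 11962 genes tested in that run, 4220 were higher in WT and 3095 in Cfb-/- mice. Median-ratio scaling gave 13 T and NK genes in WT mice and 2 B and plasma cell genes in Cfb-/- mice. Quantile normalization gave 11, 3, 7 and 2, calls in both directions included. A pseudocount of 1 gave 3 B and plasma cell genes in Cfb-/- mice, where 4004 of 14912 genes tested were higher. Leaving out each mouse gave 14 to 20 and 7 to 10 in WT mice, and 16 to 26 and 1 to 12 in Cfb-/- mice. A fit of 12 mice, chosen after seeing the data and without WT diabetic mouse 2 and Cfb-/- diabetic mouse 3, gave 21, 10, 25 and 11. For fits that left out mice no share over all genes is given, so their counts are a description. The cause of each change was not tested. For Cfb deletion and for the interaction, every alternative run gave 0 members called, the leave-one-out fits ranging from 0 to 0.

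The replicate block, with the replicate number of the titles as a term, gave 15 and 8 genes in WT mice and 21 and 2 in Cfb-/- mice. Over all genes tested it gave 4900 higher in WT and 3609 in Cfb-/- mice. Deviations from the group means were correlated over 0.1 in 3 of 19 same-number pairs and in 22 of 54 pairs of different numbers. The medians were 0.022 and 0.012. With means of 3 or 4 mice this check cannot exclude a pairing by number.

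Estimates changed sign, all for members without a call, as follows. Under quantile normalization in WT mice they were -0.14 for Prf1, -0.16 for Cd27, -0.39 for Gzmb, -0.26 for Fcer2a and -0.18 for Blk, and in Cfb-/- mice -0.22 for Cd8a and -0.077 for Fcer2a. Leaving out each mouse gave -0.21 to 0.080 for Cd8a and -0.40 to 0.30 for Ncr1 in WT mice, and -0.63 to 0.12 for Gzma in Cfb-/- mice. Cd8a in WT mice was 0.072 in the fit of 12 mice, and Ncr1 was 0.046 with a pseudocount of 0.01 and 0.14 with the replicate block. Of the other values of single members under an alternative, 925 kept direction and side of the threshold, 65 kept direction and lost the call and 21 gained one.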
